A study of Saccharomyces cerevisiae with 24 samples.

Results

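The translation elongation and termination factors of budding yeast were examined as 9 genes of 6033 nuclear ORFs: TEF1 (YPR080W), TEF2 (YBR118W), EFT1 (YOR133W), EFT2 (YDR385W), YEF3 (YLR249W), CAM1 (YPL048W), HYP2 (YEL034W), SUP35 (YDR172W) and SUP45 (YBR143C). They were chosen by name and function, not by their values. All 9 were above 0 in all 24 libraries. Their proteins carry the ribosome along the coding sequence and release the finished chain. Elongation factor eEF1A (TEF1 and TEF2) brings aminoacyl-tRNA to the ribosome, and CAM1 encodes a gamma subunit of eEF1B, the complex that reloads eEF1A with GTP. Elongation factor eEF2 (EFT1 and EFT2) moves the ribosome by a codon. Yeast also needs the fungal factor eEF3 (YEF3), which helps to release the spent tRNA, and eIF5A (HYP2), a hypusine-modified protein that relieves ribosomes stalled at difficult peptide bonds. At a stop codon eRF1 (SUP45) and eRF3 (SUP35) release the chain.

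Ribosome-protected footprints (FP) and total mRNA were sequenced from 12 haploid cultures of the S288C background with ura3, his3 and leu2 mutations, grown at 25 °C in rich medium and treated with 0.1 mg/ml cycloheximide before harvest. Run 1 held the euploid wild type (WT, MATa trp1), D2 (chromosome II disomic) and D1/2 (I and II). Run 2 held a second WT culture, D1/2/8 (I, II and VIII), D1/2/8/11 (I, II, VIII and XI, 2 cultures), D1/8 (I and VIII, 2 cultures), D13 (XIII) and D13 (KLY195), a second strain disomic for XIII (2 cultures). D2, D1/2 and D1/2/8 are MATa trp1 and D13 is MATα trp1. D1/2/8 and D13 also carry an inherited missense mutation in CAK1, and D13 carries another in SEC24. Comparisons that pool D1/2/8 or D13 with other strains therefore mix these genotypes, and the effect of the mutations was not tested. D1/2/8/11 and D1/8 are listed as MATa strains in which a TRP1-marked cassette restored CAK1, and D13 (KLY195) as a MATα strain in which TRP1- and LEU2-marked cassettes restored CAK1 and SEC24. Each strain is 1 isolate. D1/2/8/11 and D1/2/8 came from the same aneuploid parent and D1/8 came from D1/2/8, while both D13 strains came from another parent. Where a strain has 2 cultures the spread is that between the 2 cultures, and the sequencing runs hold different strains, so run and strain cannot be told apart.

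The labels were checked against the libraries first. The median log2 ratio to WT of the chromosomes labelled as duplicated lay between 0.56 and 1.12 in the 20 aneuploid libraries, and that of the other chromosomes between -0.24 and 0.23. TRP1 went against the listed genotype in D1/8, where it was not measured in 3 of 4 libraries and stood at 0.259 RPKM in the other. It also did so in the FP library labelled D13 (KLY195) replicate 1, with 0.759 RPKM against 105 in replicate 2, although the mRNA libraries held 303 and 301 RPKM. LEU2 FP was 66.5 RPKM in that library, 321 in replicate 2 and 59.1 in D13. Many of the counts, medians and tests that take in the FP library labelled D13 (KLY195) replicate 1 are therefore given also without it. The FP libraries of run 1 held 1660645 to 5074782 recovered reads, and those of run 2 held 8481000 to 24928686. The mRNA libraries held 1531913 to 3477585 reads in run 1, against 22382064 to 39626210 in run 2. No factor had fewer than 409 reads in any library, which limits counting error only.

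The sequences of the paired genes come first, because they decide which values stand for separate genes. TEF1 lies on chromosome XVI (700594 to 701970, plus strand) and TEF2 on chromosome II (477671 to 479047, plus strand) of the S288C reference assembly (sacCer3). Their coding sequences of 1377 bases differ at 2 bases and encode the same protein of 458 residues. EFT1 (chromosome XV, 575098 to 577626, plus strand) and EFT2 (chromosome IV, 1243230 to 1245758, plus strand) differ at 4 of 2529 bases, again with identical proteins. The windows below hold both differences of the TEF pair, written T762C and T834C, and 1 of those of the EFT pair, A447G (the first-named gene's base, the position from the first base of the start codon, the other gene's base). They are shown with differing bases in capitals, for TEF1 at XVI:701353-701427, TEF2 at II:478430-478504, EFT1 at XV:575506-575580 and EFT2 at IV:1243638-1243712, all on the plus strand.
TEF1: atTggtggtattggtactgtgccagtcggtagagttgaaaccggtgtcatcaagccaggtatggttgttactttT
TEF2: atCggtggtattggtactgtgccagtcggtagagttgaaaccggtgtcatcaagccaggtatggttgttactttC
EFT1: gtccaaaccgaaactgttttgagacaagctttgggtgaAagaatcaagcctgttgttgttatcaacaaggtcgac
EFT2: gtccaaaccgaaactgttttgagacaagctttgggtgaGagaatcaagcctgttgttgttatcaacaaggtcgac

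A read of 28 bases, about the length of a footprint, can be placed in a single copy only if it covers a differing base. Of the 1350 windows of 28 bases in TEF1, 1294 (95.85%) are also in TEF2, and 2390 of 2502 (95.52%) of those in EFT1 are also in EFT2. The third pair, HYP2 and its paralog ANB1 (YJR047C, chromosome X), which encodes the eIF5A made mainly when oxygen is low, is easier to separate. It is shown at V:86072-86146 (plus strand) and X:524911-524985 (minus strand), with capitals at the 11 bases that differ.
HYP2: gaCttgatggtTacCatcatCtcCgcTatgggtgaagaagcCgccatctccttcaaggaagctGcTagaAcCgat
ANB1: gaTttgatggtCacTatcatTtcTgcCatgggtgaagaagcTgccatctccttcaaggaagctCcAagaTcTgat

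HYP2 and ANB1 differ at 43 of 474 bases, and 39 of the 447 windows of HYP2 (8.72%) are shared. YEF3 shares 22 of 3108 windows (0.71%) with its paralog HEF3, CAM1 shares 10 of 1221 (0.82%) with TEF4, and SUP35 and SUP45 share none. Of the 9 genes only TEF2 and SUP45 (II:530869-532182, minus strand) lie on a chromosome that is duplicated in any strain of the study. YEF3 (XII:636780-639914), CAM1 (XVI:464401-465648), HYP2 (V:85676-86149) and SUP35 (IV:808324-810381), all on the plus strand, and TEF1, EFT1 and EFT2 keep their WT copy number throughout. Each of the 9 coding sequences is a single exon. The genes for the other subunits of eEF1B, EFB1 (YAL003W) and TEF4 (YKL081W), have 2 coding parts each and were not measured in any library.

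In WT the factors ranked high in FP and in mRNA. In mRNA of run 2 they ranked from 2 (TEF2) and 3 (TEF1) to 442 (SUP35) of 5653 genes. RPKM is scaled to coding length, so levels can be compared between genes. TEF1 and TEF2 ranked 11 and 10 of 5231 genes in FP in run 2, HYP2 ranked 53, YEF3 60, EFT2 82 and EFT1 83. CAM1 ranked 318, SUP45 291 and SUP35 541, so the termination factors were the least abundant of the set with CAM1. These ranks for the paired genes rest on reads that their copies share.

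The plot of RPKM by culture shows the levels behind all later ratios.

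**Figure D1:**
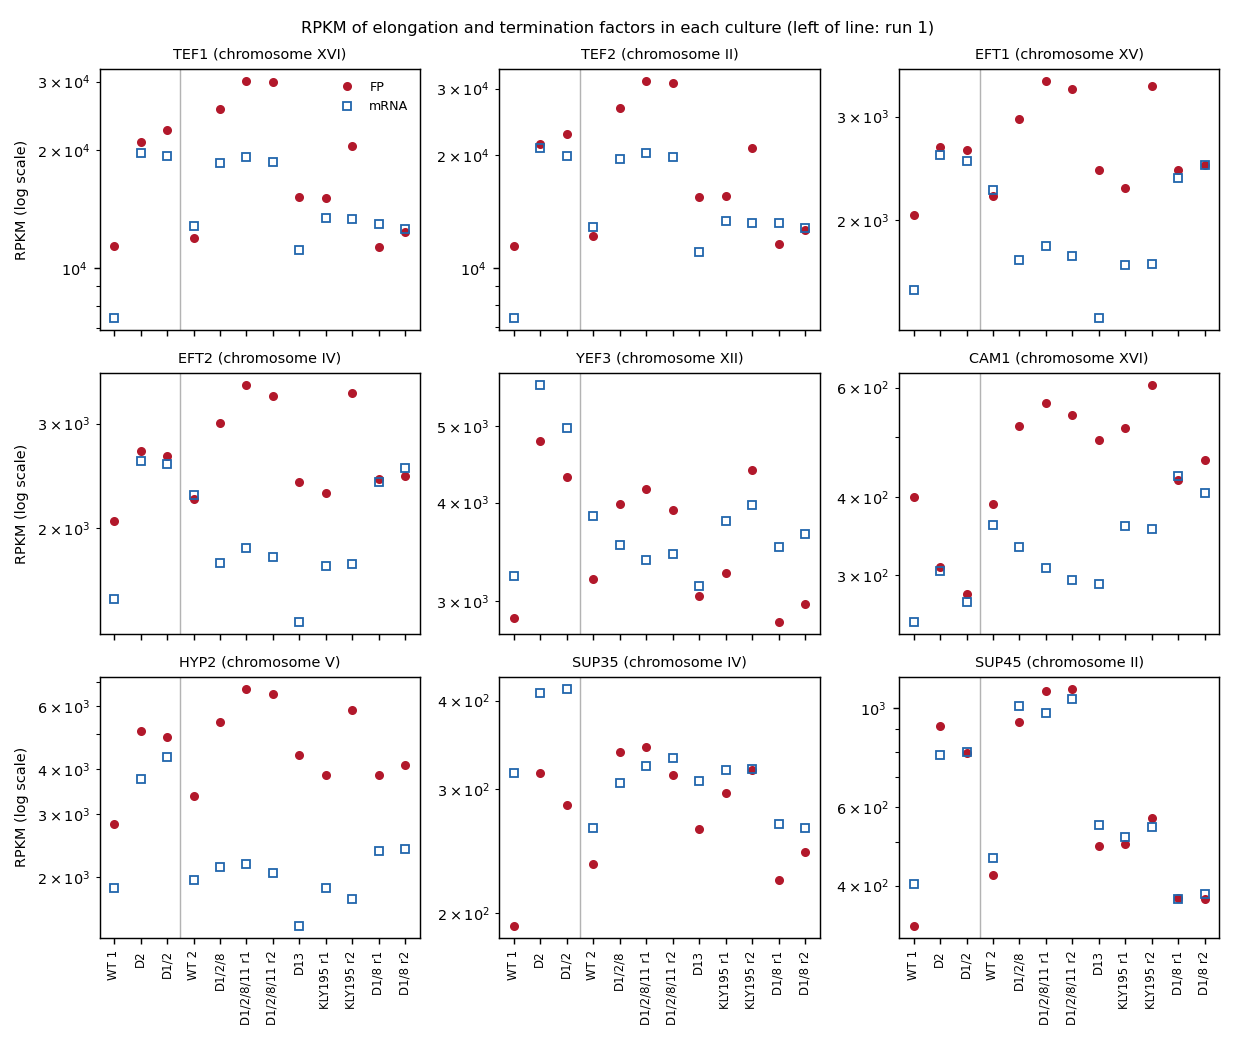
RPKM (log axis) of the 9 factors in FP (filled circles) and mRNA (open squares) in each of the 12 cultures, with 1 point per library and run 1 left of the line; r1 and r2 are replicates and KLY195 is D13 (KLY195). TEF1 and TEF2 rise together in the strains with a second chromosome II, SUP45 FP lies between 796 and 1107 RPKM in those strains, and CAM1 FP is below WT in D2 and D1/2 only.

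eEF1A was measured at nearly the same level on both copies, with TEF1 at 95.8% to 99.1% of TEF2 in FP and 94.4% to 101.0% in mRNA over the libraries. TEF2 FP was 11499 RPKM in WT, 21412 in D2 and 22764 in D1/2 in run 1. TEF2 FP in run 2 stood at 12214 RPKM in WT, 11582 and 12655 in the D1/8 cultures, 15477 in D13, 15525 and 20880 in the D13 (KLY195) cultures, 31373 and 31048 in the D1/2/8/11 cultures and 26674 in D1/2/8. All 5 libraries with a second chromosome II were above all other libraries.

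TEF1, on chromosome XVI, gave 11348, 21005 and 22549 RPKM of FP in WT, D2 and D1/2 of run 1. TEF1 FP in run 2 stood at 11934 RPKM in WT, 11313 and 12371 in the D1/8 cultures, 15187 in D13, 15133 and 20542 in the D13 (KLY195) cultures, 30060 and 29954 in the D1/2/8/11 cultures and 25543 in D1/2/8. TEF1 therefore has the pattern of a gene on chromosome II, although no strain carries an extra copy of it. With nearly all windows shared, the values listed for the 2 genes cannot be read as separate measurements. TEF2 mRNA was 7379 RPKM in WT, 20880 in D2 and 19910 in D1/2. TEF2 mRNA in run 2 stood at 12845 RPKM in WT, 13210 and 12767 in the D1/8 cultures, 11022 in D13, 13376 and 13215 in the D13 (KLY195) cultures, 20246 and 19697 in the D1/2/8/11 cultures and 19488 in D1/2/8. In mRNA too the disomes lay above every other library. TEF1 mRNA was 7430, 19705 and 19298 RPKM in run 1 and between 11130 and 19276 in run 2. Summed over both genes, mRNA was 2.7-fold WT in D2 and 2.61-fold in D1/2 in run 1. In run 2 the sum was 1.48-fold WT for D1/2/8, and 1.54- and 1.5-fold for the D1/2/8/11 cultures. Against the WT library of the other run it was 1.37-fold for D2, 1.34-fold for D1/2, 2.88-fold for D1/2/8 and 3.0- and 2.9-fold for D1/2/8/11. The pair has 2 copies in WT and 3 in these strains, a ratio of 1.5, and which strains are near it depends on the WT library. Against the other run's WT library the mRNA sum was 2.03- and 1.97-fold for D1/8, 1.64-fold for D13 and 2.02- and 1.97-fold for D13 (KLY195). Those strains have 2 copies of the pair, yet with this library they lay above D2 and D1/2. The same sum in FP, against the same-run WT, was 1.75-fold for D2, 1.89-fold for D1/2, 2.55- and 2.53-fold for D1/2/8/11 and 2.16-fold for D1/2/8. It was 0.95- and 1.04-fold for D1/8, 1.27-fold for D13 and 1.27- and 1.72-fold for D13 (KLY195), the last close to D2.

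The difference between the copies was tested directly, as the change against the same-run WT in log2 TEF1 minus log2 TEF2. In mRNA it averaged -0.0724 over the 4 chromosome II disomes and 0.00268 over the 3 other strains, a difference of -0.0751 (two-sided exact permutation test over strains, p = 0.029, the smallest p that 35 splits allow). In FP the difference was -0.0171 (exact permutation p = 0.171). For EFT1 and EFT2, neither of which is duplicated, it was -0.0266 in FP (exact permutation p = 0.029) and 0.00279 in mRNA (exact permutation p = 0.771). Adjusted over these 4 tests, both smallest values became p = 0.0571 (exact permutation), so no shift passed the threshold. The plot of the pair differences shows how small these shifts are.

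**Figure D2:**
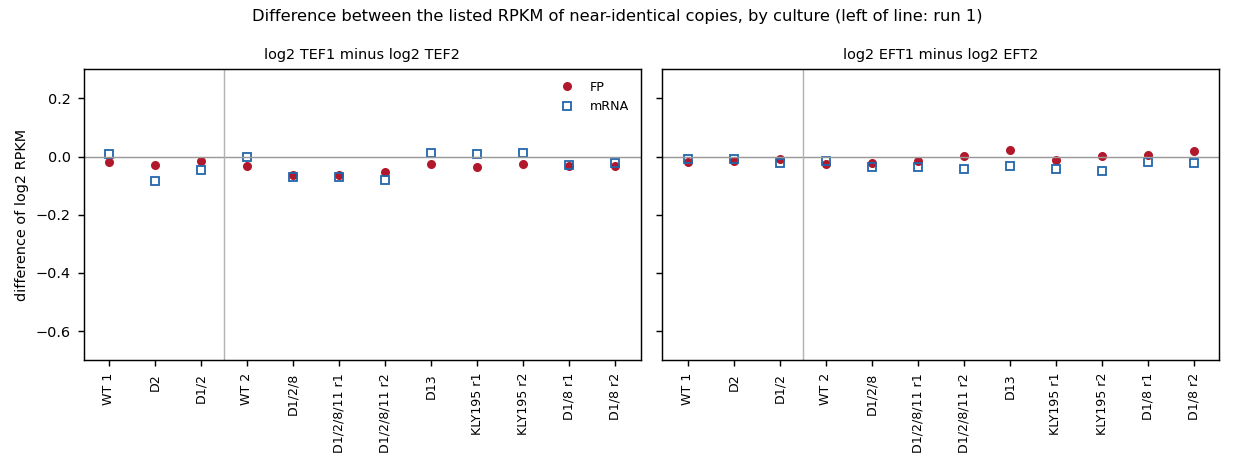
Difference of log2 RPKM between TEF1 and TEF2 (left) and between EFT1 and EFT2 (right) in FP (filled circles) and mRNA (open squares), 1 point per library, with run 1 left of the line. All points lie within 0.1 of 0, and in mRNA the 4 chromosome II disomes lie below the other aneuploid strains for the TEF pair.

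eEF2 changed less in FP. EFT1 FP was 2036 RPKM in WT, 2668 in D2 and 2630 in D1/2. EFT1 FP in run 2 stood at 2199 RPKM in WT, 2434 and 2485 in the D1/8 cultures, 2433 in D13, 2271 and 3388 in the D13 (KLY195) cultures, 3448 and 3339 in the D1/2/8/11 cultures and 2968 in D1/2/8. D13 (KLY195) replicate 2 was as high as D1/2/8/11, while replicate 1 was below D1/8. EFT1 was 98.2% to 101.5% of EFT2 in FP and 96.7% to 99.5% in mRNA, so the values of EFT2 are not repeated.

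EFT1 mRNA stood on different sides of the same-run WT in the 2 runs. It was 1517 RPKM in WT, 2579 in D2 and 2526 in D1/2, above WT. EFT1 mRNA in run 2 stood at 2251 RPKM in WT, 2361 and 2486 in the D1/8 cultures, 1361 in D13, 1677 and 1682 in the D13 (KLY195) cultures, 1805 and 1736 in the D1/2/8/11 cultures and 1710 in D1/2/8. In run 2 EFT1 mRNA was below the WT of that run in all strains but D1/8. Against the WT library of the other run the log2 ratio went from -0.39 to 0.34 for D1/2/8, from -0.34 to 0.39 for D1/2/8/11, from -0.42 to 0.29 for D13 (KLY195), from -0.72 to -0.03 for D13 and from 0.74 to -0.01 for D2. With that library all 9 factors were above WT in mRNA in D1/2/8/11, D1/2/8 and D13 (KLY195), so the signs of mRNA ratios to WT are not settled either.

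YEF3 FP was 2859 RPKM in WT, 4788 in D2 and 4312 in D1/2. YEF3 FP in run 2 stood at 3199 RPKM in WT, 2825 and 2980 in the D1/8 cultures, 3048 in D13, 3258 and 4403 in the D13 (KLY195) cultures, 4166 and 3911 in the D1/2/8/11 cultures and 3981 in D1/2/8. Its mRNA was 3227, 5635 and 4971 RPKM in run 1. Its mRNA in run 2 was 3843 in WT and between 3136 and 3978 in the aneuploid libraries. YEF3 mRNA stood above the same-run WT in D2 and D1/2, by 0.78 and 0.60 on the log2 scale, and by 0.35 and 0.18 with the other WT library. HEF3, its paralog, had 13 to 29.8 RPKM in FP and 12.4 to 21.4 in mRNA.

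CAM1 was the only factor with FP below WT in chromosome II disomes. Its FP was 399.8 RPKM in WT, 308.5 in D2 and 280.1 in D1/2, a log2 ratio of -0.46 and -0.58. CAM1 FP in run 2 stood at 390.3 RPKM in WT, 425.6 and 458.5 in the D1/8 cultures, 494.3 in D13, 516.5 and 605.7 in the D13 (KLY195) cultures, 566.3 and 542.7 in the D1/2/8/11 cultures and 521 in D1/2/8, above WT in all 8 aneuploid libraries. CAM1 mRNA was 252.1, 304.6 and 271.6 RPKM in run 1. CAM1 mRNA in run 2 stood at 360.5 RPKM in WT, 433.1 and 406.8 in the D1/8 cultures, 289.7 in D13, 359.3 and 355.5 in the D13 (KLY195) cultures, 308.3 and 295 in the D1/2/8/11 cultures and 333 in D1/2/8.

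HYP2 FP was 2801 RPKM in WT, 5116 in D2 and 4904 in D1/2. HYP2 FP in run 2 stood at 3368 RPKM in WT, 3861 and 4105 in the D1/8 cultures, 4394 in D13, 3851 and 5845 in the D13 (KLY195) cultures, 6707 and 6470 in the D1/2/8/11 cultures and 5424 in D1/2/8. Its mRNA was 1864, 3749 and 4328 RPKM in run 1. HYP2 mRNA in run 2 stood at 1963 RPKM in WT, 2358 and 2394 in the D1/8 cultures, 1459 in D13, 1861 and 1734 in the D13 (KLY195) cultures, 2174 and 2056 in the D1/2/8/11 cultures and 2125 in D1/2/8. HYP2 FP was above WT in every aneuploid library. ANB1 stood at 219 to 394 RPKM in FP and 54.3 to 189 in mRNA.

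SUP45 FP separated the strains most clearly. It was 324.8 RPKM in WT, 911.7 in D2 and 796.1 in D1/2. SUP45 FP in run 2 stood at 423.5 RPKM in WT, 376 and 373.9 in the D1/8 cultures, 490.6 in D13, 496 and 567.6 in the D13 (KLY195) cultures, 1095 and 1107 in the D1/2/8/11 cultures and 934.5 in D1/2/8. Its mRNA was 402.9, 785.3 and 796.6 RPKM in run 1. SUP45 mRNA in run 2 stood at 462.2 RPKM in WT, 373.8 and 383.1 in the D1/8 cultures, 545.9 in D13, 514.3 and 541.5 in the D13 (KLY195) cultures, 975.1 and 1053 in the D1/2/8/11 cultures and 1012 in D1/2/8. The log2 ratio to WT in the disomes was 1.14 to 1.40 in FP and 0.94 to 1.19 in mRNA, with no overlap with the other strains. With the WT library of the other run SUP45 kept apart in FP, at 1.16 to 1.46 against -0.10 to 0.45 in the other strains, but not in mRNA, where D2 was at 0.56 and D13 at 0.57.

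SUP35, the partner of SUP45 on an unduplicated chromosome, moved less. Its FP was 192.1 RPKM in WT, 315.5 in D2 and 284.6 in D1/2. SUP35 FP in run 2 stood at 235.1 RPKM in WT, 223.2 and 244.4 in the D1/8 cultures, 263.4 in D13, 295.8 and 318.9 in the D13 (KLY195) cultures, 344.2 and 313.8 in the D1/2/8/11 cultures and 338 in D1/2/8. D1/2/8/11 replicate 2 was below D13 (KLY195) replicate 2. Its mRNA was 315.6, 409.8 and 415.5 RPKM in run 1. SUP35 mRNA in run 2 stood at 263.8 RPKM in WT, 267.9 and 263.9 in the D1/8 cultures, 307.9 in D13, 318.6 and 320 in the D13 (KLY195) cultures, 323.2 and 331.7 in the D1/2/8/11 cultures and 306 in D1/2/8. SUP35 mRNA was lowest in WT and D1/8 in run 2.

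Ratios to the same-run WT put the genes on 1 scale, with 0 set at the median of genes on chromosomes not duplicated in that strain. Each run has 1 WT library per fraction, so these ratios carry no test. Of the 9 factors, 6 were at least 1.5-fold above WT in FP for D2 (12.8% of all genes), 6 for D1/2/8/11 (24.7%), 4 for D1/2 (14.0%) and 4 for D1/2/8 (16.3%). TEF1, TEF2, HYP2 and SUP45 were among them in each of these strains, with YEF3 and SUP35 in D2 and EFT1 and EFT2 in D1/2/8/11. TEF2 and SUP45 lie on chromosome II, and the copies of a near-identical pair are not separate measurements. No factor reached 1.5-fold in D13 (17.1%), in D1/8 (10.1%) or in the mean of the 2 cultures of D13 (KLY195) (14.8%). That mean holds the FP library labelled D13 (KLY195) replicate 1, in which no factor reached it (16% of all genes). In replicate 2 alone 6 factors did (17.5%): TEF1, TEF2, EFT1, EFT2, CAM1 and HYP2. The median log2 FP ratio of the 9 was 0.66 for D2, 0.53 for D1/2, 0.63 for D1/2/8/11 and 0.52 for D1/2/8. For D13 it was 0.21, for D13 (KLY195) 0.39 and for D1/8 -0.01, beside medians of all genes of 0.02 to 0.11. For D13 (KLY195) it was 0.23 in replicate 1 and 0.62 in replicate 2 alone, the latter within the range of the chromosome II disomes. Other genes at or above the lowest member in both WT FP libraries had medians of 0.13, 0.09, 0.49, 0.36, 0.20, 0.32 and 0.08 in the same order of strains.

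**Figure D3:**
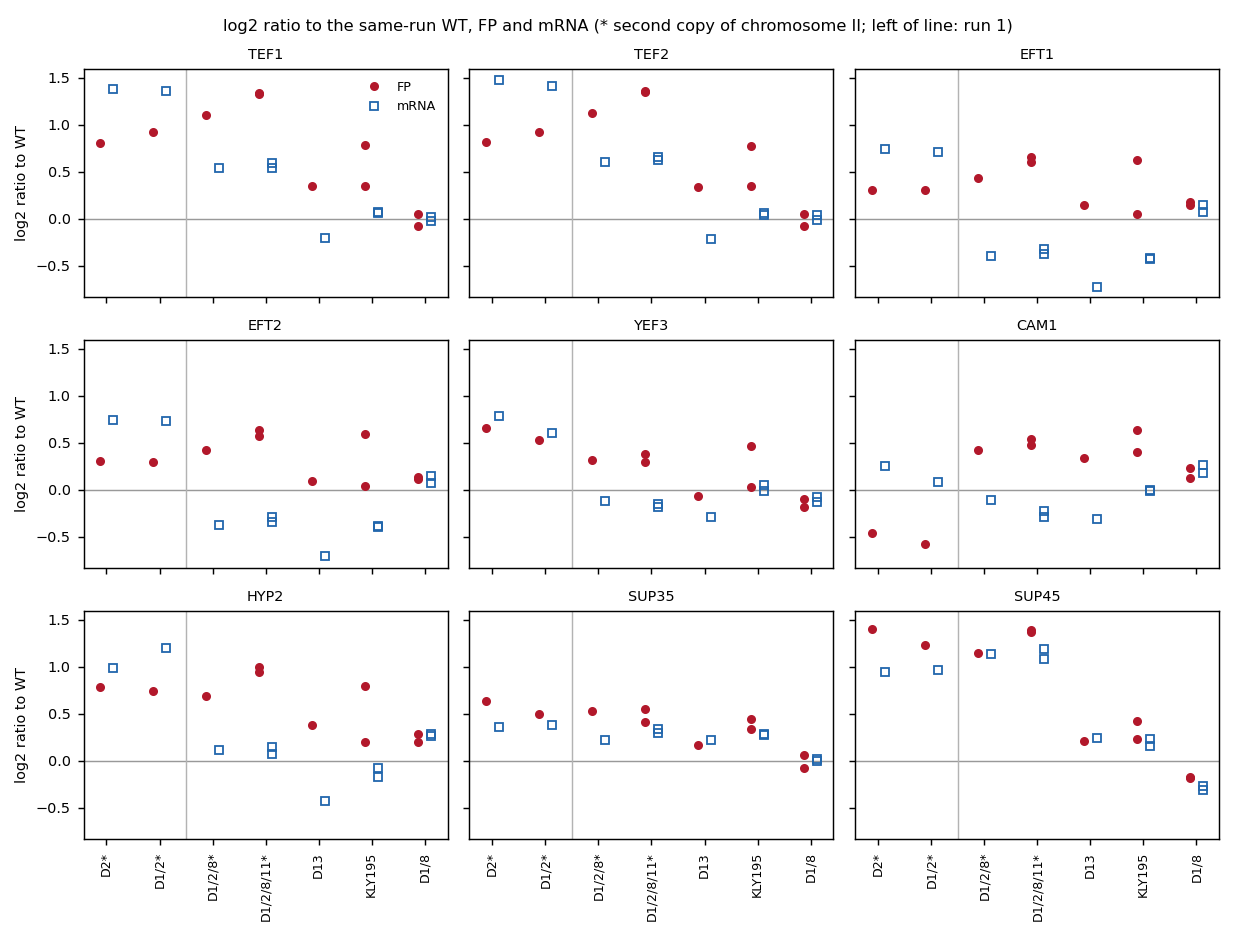
Log2 ratio to the same-run WT of the 9 factors in FP (filled circles) and mRNA (open squares) for each aneuploid culture, with 1 point per library, run 1 left of the line and an asterisk at strains with a second chromosome II. In D2 and D1/2 mRNA lies above FP for TEF1, EFT1 and CAM1, and in D1/2/8/11, D1/2/8 and both D13 strains FP lies above mRNA for the same genes.

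The 2 cultures of a strain lay close together in mRNA, with a median SD over the 9 factors of 0.034 for D1/2/8/11, 0.035 for D1/8 and 0.011 for D13 (KLY195). In FP it was 0.04 and 0.06 in D1/2/8/11 and D1/8 but 0.31 in D13 (KLY195), the strain with the doubtful FP library.

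Strains with and without a second chromosome II were then compared, with 1 value per strain, 4 strains against 3. In FP, 6 factors were higher in all 4 disomes than in all 3 other strains (12% of 4785 genes): TEF1, TEF2, YEF3, HYP2, SUP35 and SUP45. SUP45 differed by 1.17 on the log2 scale, TEF2 by 0.76, YEF3 by 0.45, HYP2 by 0.42 and SUP35 by 0.35, each at an exact permutation p = 0.029, the smallest possible, and an adjusted p = 0.278 over all genes. No gene of the whole table reached an adjusted p of 0.05 by this exact permutation test, in which 491 genes had the smallest p. Without the FP library labelled D13 (KLY195) replicate 1, 4 factors were higher without overlap, and YEF3 and HYP2 overlapped. The count was 8 without D13 (KLY195) replicate 2, without the shift or with 1 RPKM added. It was also 8 within run 2 and with the mean of both WT libraries. The share of all genes is not given for these alternative counts, so none can be set beside the 12%. Within run 2 only 10 splits of the strains exist, with a smallest exact permutation p of 0.1. CAM1 differed by -0.38 (exact permutation p = 0.371) and EFT1 by 0.20 (exact permutation p = 0.171).

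In mRNA, 3 factors were higher in all 4 disomes (9.66% of 5062 genes), TEF1, TEF2 and SUP45, of which TEF2 and SUP45 lie on chromosome II. TEF2 differed by 1.08 and SUP45 by 0.99 on the log2 scale (exact permutation p = 0.029, adjusted p = 0.307). HYP2 (0.70, exact permutation p = 0.171) and EFT1 (0.53, exact permutation p = 0.257) overlapped between the groups. In ribosome density, FP relative to mRNA, SUP35 alone was higher in all 4 disomes (3.0% of 4771 genes), by 0.21 (exact permutation p = 0.057), and it overlapped when D13 (KLY195) replicate 1 or D1/2/8/11 replicate 1 was left out.

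Within run 2 the D1/2/8/11 and D1/2/8 cultures (3 libraries) were set against the cultures of D1/8 and both D13 strains (5 libraries) by limma on log2(RPKM + 0.5) with each library centred on its median gene on chromosomes duplicated in no strain. In FP, 3 factors were higher (11.2% of 5033 genes), SUP45 by 1.29 ± 0.22 (log2, SE, limma adjusted p = 0.008), TEF2 by 1.09 ± 0.25 (limma adjusted p = 0.0257) and TEF1 by 1.06 ± 0.26 (limma adjusted p = 0.0285). The same genes were higher in mRNA (9.49% of 5470 genes), SUP45 by 1.13 ± 0.15 (limma adjusted p = 0.00221), TEF2 by 0.65 ± 0.11 (limma adjusted p = 0.00692) and TEF1 by 0.58 ± 0.11 (limma adjusted p = 0.0107). In density limma called 0 factors and 0 of 5032 genes (0.0%), with 412 genes, among them 1 factor, at an unadjusted p under 0.05. The calls depend on single libraries. Leaving out D1/2/8/11 replicate 1 left 0 factors called in FP, with 160 genes higher over the whole table, and 1 in mRNA, with 236. Leaving out D1/2/8, D1/2/8/11 replicate 2, D13 or D1/8 replicate 2 left 1 in FP, with 191 to 512 genes higher. Without D13 (KLY195) replicate 2 it was 7, with 674 genes higher, against 566 with all libraries. Without the doubtful FP library 3 factors were called, with 441 genes higher. With cultures averaged to strains, no gene of the whole table was called in any measure. Counted once per near-identical pair, with their RPKM summed, 2 of 7 were called in FP and 2 of 7 in mRNA.

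D1/2/8/11 and D1/8 share chromosomes I and VIII and differ in II and XI, and each has 2 cultures. The D1/8 libraries are those that lacked TRP1, while their duplicated chromosomes matched the label. D1/2/8/11 held 375 and 358 RPKM of TRP1 mRNA, so the compared strains also differ in TRP1. Whether CAK1 is restored in the D1/8 cultures was not tested. In FP all 9 factors were higher in D1/2/8/11 (39.4% of 5036 genes). SUP45 was 3.41-fold higher (log2 1.77 ± 0.12 SE, limma adjusted p = 0.000211), TEF2 3.0-fold (1.58 ± 0.22, limma adjusted p = 0.0016), HYP2 1.92-fold (0.94 ± 0.22, limma adjusted p = 0.0122) and SUP35 1.63-fold (0.71 ± 0.13, limma adjusted p = 0.00413). YEF3 was 1.62-fold higher, EFT1 1.6-fold and CAM1 1.46-fold. In this contrast the median of all genes was 0.30 above 0 and that of the factors 0.71. With the values as deposited the median of all genes was 0.09 and 5 factors were called (1230 genes higher and 1104 lower, against 1984 and 943). Centred on the median ratio to WT, chosen after the data were seen, the same number was called: TEF1, TEF2, HYP2, SUP35 and SUP45. EFT1, EFT2, YEF3 and CAM1 were not called with this centring. Fewer factors and fewer genes of the whole table were called with any culture of either strain left out. The median of the factors then lay between 0.63 and 0.81. Without the FP library labelled D13 (KLY195) replicate 1 it was 0.71. With the pairs summed 7 of 7 were called.

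The mRNA of the same strains divided the factors. TEF1, TEF2, SUP35 and SUP45 were higher in D1/2/8/11 (41.5% of 5470 genes) and EFT1, EFT2, CAM1 and HYP2 were lower (34.3%). SUP45 rose by 1.40 ± 0.05 (limma adjusted p = 6.42e-09), TEF2 by 0.60 ± 0.06 (limma adjusted p = 5.26e-06) and SUP35 by 0.28 ± 0.05 (limma adjusted p = 0.000336). CAM1 fell by 0.50 ± 0.05 (limma adjusted p = 1.04e-05), EFT1 fell by 0.47 ± 0.05 (limma adjusted p = 1.41e-05) and HYP2 fell by 0.19 ± 0.06 (limma adjusted p = 0.0154). YEF3 differed by -0.09 ± 0.05 (limma adjusted p = 0.141).

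Density was higher in D1/2/8/11 for the 7 elongation genes (23.4% of 5035 genes). EFT1 was higher by 1.15 ± 0.21 (limma adjusted p = 0.0108), HYP2 by 1.13 ± 0.26 (limma adjusted p = 0.0191), CAM1 by 1.04 ± 0.16 (limma adjusted p = 0.00687), TEF1 by 1.01 ± 0.19 (limma adjusted p = 0.0112) and YEF3 by 0.78 ± 0.17 (limma adjusted p = 0.0163). The termination factors did not pass, with 0.43 ± 0.15 for SUP35 (limma adjusted p = 0.0617) and 0.37 ± 0.13 for SUP45 (limma adjusted p = 0.0726), and whether they differ from the elongation genes was not tested. The median of all genes was 0.19 in this contrast. The same 7 genes were called when centred on the median ratio to WT, where the median of all genes was -0.05 and 542 genes were higher and 957 lower, against 1178 and 660. With 1 of the D1/2/8/11 cultures left out CAM1 was the only factor called, with 340 genes higher and 334 lower without replicate 1 and 382 and 381 without replicate 2, and with either of the D1/8 cultures left out no gene of the whole table was, the factors included, while the median of the factors was 0.93 and 1.09. Without the FP library labelled D13 (KLY195) replicate 1 the median of the factors in density was 1.01 and that of all genes 0.19. With the pairs summed 5 of 7 were called.

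D13 (KLY195), which has no second chromosome II, was set against D1/8 in the same fit. In FP 6 factors were higher (33.2% of 5036 genes), TEF1, TEF2, YEF3, CAM1, SUP35 and SUP45, with SUP45 1.64-fold (0.72 ± 0.12, limma adjusted p = 0.00404) and TEF1 1.73-fold (0.79 ± 0.22, limma adjusted p = 0.0239). Here the median of all genes was 0.23, and with the values as deposited it was 0.02 and 2 factors were called, as with centring on the ratio to WT (SUP35 and SUP45). Without the FP library labelled D13 (KLY195) replicate 1 the median of the factors was 0.76, against 0.60 with it. That of all genes was then 0.25. The calls of the factors were lost with either D1/8 culture left out. With the pairs summed 5 of 7 were called.

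In mRNA, SUP35 and SUP45 were higher in D13 (KLY195) than in D1/8 (38.4% of 5470 genes), by 0.25 ± 0.05 (limma adjusted p = 0.000736) and 0.46 ± 0.05 (limma adjusted p = 1.71e-05). EFT1, EFT2, HYP2 and CAM1 were lower (38.7%). EFT1 fell by 0.54 ± 0.05 (limma adjusted p = 4.19e-06) and HYP2 fell by 0.42 ± 0.06 (limma adjusted p = 8.44e-05). TEF1 differed by 0.05 ± 0.06 (limma adjusted p = 0.428). In density 6 factors were higher (24.3% of 5035 genes): EFT1 by 0.93 ± 0.21 (limma adjusted p = 0.0183), EFT2, HYP2, CAM1, TEF1 and TEF2. With the values as deposited 3 were called, and centred on the ratio to WT they were EFT1, EFT2 and CAM1. Without the doubtful FP library the median of the factors in density was 0.97, against 0.77 with it. That of all genes was 0.20 in both. With the pairs summed 4 of 7 were called. No factor was called without D1/8 replicate 1, where 131 genes were higher and 45 lower, or without D1/8 replicate 2, where no gene was.

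Between D1/2/8/11 and D13 (KLY195), 3 factors were higher in D1/2/8/11 in FP (21.1% of 5036 genes): SUP45 by 1.05 ± 0.12 (limma adjusted p = 0.00145), TEF2 by 0.79 ± 0.22 (limma adjusted p = 0.0327) and TEF1 by 0.77 ± 0.22 (limma adjusted p = 0.0376). In mRNA TEF1, TEF2, HYP2 and SUP45 were higher (37.3% of 5470 genes) and YEF3 and CAM1 were lower (24%). TEF2 was higher by 0.58 ± 0.06 (limma adjusted p = 7.37e-06), and CAM1 fell by 0.25 ± 0.05 (limma adjusted p = 0.00219). In density limma called 0 factors and 0 of 5035 genes (0.0%), with 668 genes but no factor at an unadjusted p under 0.05. Fewer factors were called in FP with any 1 culture of D1/2/8/11 or D1/8 left out. Without D13 (KLY195) replicate 2 the median FP difference of the factors was 0.57, and without the doubtful FP library 0.05, against 0.29 with both. In density the median of the factors went from 0.23 to 0.01 without the doubtful library. With the pairs summed 2 of 7 factors were called in FP.

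Against WT, the density of the elongation genes took opposite signs in the 2 runs for all strains but D1/8, and this depends on which WT library is used. In D2 and D1/2 the log2 density ratio was -0.58 and -0.43 for TEF1, -0.44 and -0.41 for EFT1, -0.71 and -0.67 for CAM1 and -0.20 and -0.45 for HYP2. In D1/2/8 it was 0.56, 0.83, 0.53 and 0.57 for the same genes, and in D13 it was 0.55, 0.87, 0.66 and 0.81. D1/8 lay near 0 against the WT of its own run, with EFT1 at 0.08 and 0.03. Other genes at or above the lowest member in both WT FP libraries had median density ratios of -0.35 for D2 and -0.39 for D1/2. Their medians were 0.24 for D1/2/8, 0.32 for D1/2/8/11, 0.30 for D13, 0.31 for D13 (KLY195) and -0.12 for D1/8. The opposite signs are therefore not particular to the elongation genes. The WT libraries themselves differed: log2 of FP over mRNA was 0.61 in run 1 and -0.10 in run 2 for TEF1, 0.42 and -0.03 for EFT1 and 0.67 and 0.12 for CAM1. Set against the WT library of the other run, the median density ratio of the 9 factors went from -0.44 to 0.52 for D2, from -0.43 to 0.51 for D1/2, from 0.76 to -0.04 for D1/2/8/11 and from 0.53 to -0.08 for D1/2/8. It went from 0.56 to -0.23 for D13, from 0.51 to -0.15 for D13 (KLY195) and from -0.02 to -0.91 for D1/8, the value farthest from 0. The direction of a density change against WT is therefore not settled by these libraries, whereas the comparison of D1/2/8/11 with D1/8 takes no WT library as its reference.

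SUP35 and SUP45 did not follow this pattern against the same-run WT. SUP35 density ratios were 0.28 for D2, 0.13 for D1/2, 0.26 and 0.08 for D1/2/8/11 and 0.31 for D1/2/8. For D13 the SUP35 ratio was -0.06, for D13 (KLY195) 0.06 and 0.16 and for D1/8 -0.10 and 0.06. For SUP45 they were 0.46, 0.27, 0.30 and 0.20, 0.01, -0.03, 0.08 and 0.19, and 0.14 and 0.09 in the same order. Against the same-run WT both lay above 0 in all 5 libraries of chromosome II disomes, and SUP45 also in the D1/8 and D13 (KLY195) cultures. With the WT library of the other run SUP45 was at 0.78 for D2, 0.56 for D1/2, -0.04 for D1/2/8/11 and -0.23 for D1/2/8. SUP35 was at 0.23, 0.06, 0.25 and 0.44 in the same order. The sign for SUP45 in the disomes of run 2 therefore depends on the WT library too.

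**Figure D4:**
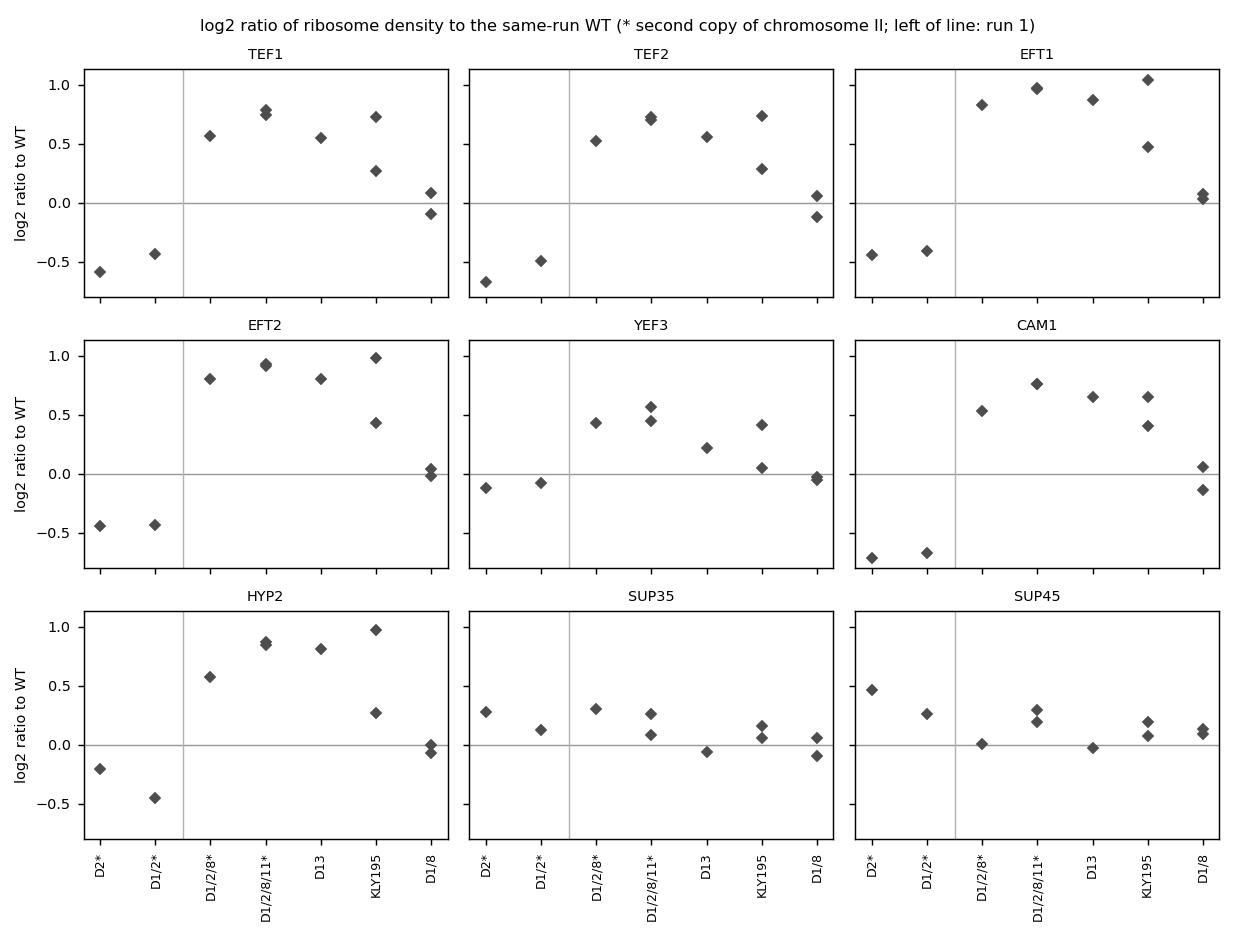
Log2 ratio of ribosome density (FP relative to mRNA) to the same-run WT for the 9 factors, with 1 point per culture, run 1 left of the line and an asterisk at strains with a second chromosome II. For the elongation genes D2 and D1/2 lie below 0 and the run 2 strains other than D1/8 lie above 0, while SUP35 and SUP45 lie between -0.10 and 0.46.

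Other genes of translation were described from lists fixed by role. Of the 13 partners of the factors (among them paralogs, eEF1B subunits and ribosome rescue factors) 11 were tested, of 19 enzymes that modify the factors 17, and all 27 initiation factors and all 19 aminoacyl-tRNA synthetases. In density, D1/2/8/11 against D1/8, 5 partners, 10 modifiers, 17 initiation factors and 11 synthetases were higher (23.4% of all genes) and none was lower, with medians of 0.61, 0.68, 0.52 and 0.53 beside 0.19 for all genes and 1.01 for the 9 factors. These calls too are lost with either D1/8 culture left out. ANB1 was higher by 1.22 ± 0.23 (log2, SE, limma adjusted p = 0.0119) and LIA1, the deoxyhypusine hydroxylase that completes the modification of eIF5A, by 1.12 ± 0.14 (limma adjusted p = 0.00519). DED1, an RNA helicase of initiation, was higher by 2.07 and DPS1, the aspartyl-tRNA synthetase, by 1.42. In mRNA of the same contrast DED1 fell by 1.52 and DPS1 fell by 0.89. DYS1, the deoxyhypusine synthase that starts the same modification and lies on chromosome VIII, was higher in mRNA by 1.36 in D1/2/8/11 than in D13 (KLY195), where VIII is not duplicated.

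The genes whose FP over the 9 libraries of run 2 was most like the mean of YEF3, CAM1, HYP2 and SUP35 were ARC1 (Pearson r = 0.99), CPR1 (r = 0.987) and HRP1 (r = 0.987) of 4941 genes. ARC1 encodes a cofactor of aminoacyl-tRNA synthetases and CPR1 a cyclophilin. The factors' own correlations with that mean ranged from 0.894 for SUP45 to 0.976 for SUP35, and 4 of them form the mean. These correlations are a description over libraries that share strains and centring.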

How the data were processed

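Footprint and total mRNA libraries of 12 cultures were analysed. The authors used Cutadapt for trimming and Bowtie, allowing no mismatch to sacCer3 mRNAs, for alignment. They deposited RPKM, reads in the coding sequence scaled by its length and library size, with the aneuploid libraries rescaled so that their median ratio to WT over nonduplicated genes was level. Versions and the treatment of reads that match several genes are not given in the sources used here. Values at 0 or blank were treated as not measured, and the 28 mitochondrial ORFs of 6061 were left out. Multiplied by coding length, the lowest values step in whole reads from 4 reads, within 0.05 of a read for 98.1% to 100.0% of low values per library, and depth was recovered from this step. Reads without molecular identifiers give counting error only. No count test was run.

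Log2 ratios to the same-run WT were shifted to the median of nonduplicated genes, and density is the FP ratio minus the mRNA ratio. Strain values (4 against 3) were compared by two-sided exact permutation tests (35 splits). Run 2 libraries were compared by limma 3.58.1 (R 4.3.3; lmFit, eBayes with trend) on log2(RPKM + 0.5), which understates changes of low genes, where the mean RPKM reached 1, with Benjamini-Hochberg adjustment over all genes and a threshold of 0.05. Both tests were tested on simulated data. In the fits of strain pairs the spread comes from the 3 strains that have 2 cultures. Python 3.11.15 and the S288C reference annotation were used. A pseudocount of 0.1 or 5, no or a stricter filter, other centring, single libraries left out, summed pairs, other WT references and a replicate block were tried as alternatives.

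All 9 factors were named, with the paralogs HEF3, ANB1, TEF4 and EFB1, up to 2 genes per list and direction with the largest called change, and the 3 genes most like the factors in FP. The factors, lists and tests were chosen with earlier results of these data known.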

Additional observations from a re-analysis of the deposited data

Results flagged for a closer look

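Among the 54 groups of values examined for a value far from the rest, 3 held one, where chance gives about 1 in 20. In the 5 libraries of the strains without a second chromosome II, D13 (KLY195) replicate 2 stood apart in FP for EFT1, with a log2 ratio of 0.624, and for EFT2, with 0.594, which share most reads. D13 stood apart in mRNA for TEF2, at -0.22.

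Chromosome II disomes of run 1 (D2 and D1/2) and run 2 (D1/2/8/11 and D1/2/8) had opposite signs against their WT in every library for several factors. The difference between the runs was not tested, and run and strain cannot be told apart. CAM1 FP relative to the same-run WT was 0.998 higher in run 2 than in run 1 on the log2 scale. With the WT library of the other run it was -0.11 for D2, -0.23 for D1/2, 0.12 for D1/2/8 and 0.17 for D1/2/8/11. In mRNA the values of run 2 minus run 1 were -1.09 for EFT1, -1.07 for EFT2, -0.84 for YEF3 and -0.38 for CAM1. In density they were 1.20 for TEF1, 1.23 for TEF2, 1.35 for EFT1, 1.32 for EFT2, 0.58 for YEF3, 1.37 for CAM1 and 1.09 for HYP2. Against the WT library of the other run the median density ratio of the 9 factors was 0.52 in D2 and -0.08 in D1/2/8.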

How the results depend on the processing

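No called difference of a factor in the tests changed sign under any alternative run. Ratios to WT, which carry no test, did so in mRNA and density with the WT library of the other run. Some FP ratios near 0 did too, such as CAM1 in D1/8 (0.18 to -0.17) and EFT2 in D13 (0.1 to -0.04). With the values as deposited, the factors called fell from 9 to 5 (D1/2/8/11 against D1/8, FP), from 6 to 2 (D13 (KLY195) against D1/8, FP) and from 6 to 3 (the same strains, density). Centring on the median ratio to WT, chosen after seeing the data, gave 5, 2 and 3. Over genes on chromosomes duplicated in no strain, which leaves out TEF2 and SUP45, 0 factors were called in FP between chromosome II disomes and the other strains of run 2, and 0 between D1/2/8/11 and D13 (KLY195). With cultures averaged to strains 0 were called in FP and 0 in mRNA. Where leaving out a library left 1 culture of a strain, that culture was assumed to vary like the others. The number of genes called over the whole table also changed between these fits. The counts that follow are therefore not changes of the factors alone. Leaving out 1 library at a time gave 0 to 7 factors in FP and 1 to 3 in mRNA for chromosome II disomes against the others. For D1/2/8/11 against D1/8 it gave 3 to 9 in FP and 0 to 9 in density, for D13 (KLY195) against D1/8 0 to 9 in FP and 0 to 7 in density, and for D1/2/8/11 against D13 (KLY195) 1 to 6 in FP. The factors at least 1.5-fold above WT in FP in D13 (KLY195) numbered 0 to 6 with a culture left out, chosen after seeing the data. Factors higher without overlap in density were 3 within run 2 and 0 to 1 with a culture left out. The share of all genes is not given for these counts, and within run 2 only 10 splits of the strains exist. The TEF1 minus TEF2 difference in mRNA was -0.0733 within run 2, where the smallest exact permutation p is 0.1. That of EFT1 minus EFT2 was -0.0227 in FP (exact permutation p = 0.2) and -0.00508 in mRNA within run 2, and -0.0293 to -0.0238 in FP with a culture left out. The cause of these shifts was not tested. Against the WT library of the other run, 145 of 189 ratios to WT moved by more than the spread between cultures, against 3 without the shift and 69 with the shift taken from genes without a hydrophobic segment. Same-numbered replicates correlated at -0.08, 0.11 and 0.04 in FP and -0.04, 0.21 and 0.01 in mRNA. This does not exclude that replicate numbers pair the cultures, with D1/2/8/11 and D13 (KLY195) at 0.11 and 0.21. A replicate block was fitted for D1/2/8/11 against D1/8, D13 (KLY195) against D1/8 and D1/2/8/11 against D13 (KLY195). In that order it gave 9, 5 and 1 factors in FP, 8, 6 and 6 in mRNA and 7, 6 and 0 in density. Depth did not limit the factors, but each strain has at most 2 cultures.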
